A study of Homo sapiens with 16 samples.

Results

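The genes described here encode the subunits of the CoREST complex, a repressor of transcription that removes activating marks from histones. They are the 9 rows of the gene count table whose symbol is KDM1A, HDAC1, HDAC2, RCOR1, RCOR2, RCOR3, PHF21A, HMG20B or ZMYM2, of 60603 genes in the table. RNA of 2 human myeloid cell lines was measured in 16 libraries. SKNO-1 is a line with the RUNX1-RUNX1T1 fusion gene, and its medium held GM-CSF at 10 ng/mL. U-937 is a monocyte-like line grown without that addition. In every difference between the lines given below, cell line and GM-CSF thus cannot be told apart. The treatments lasted 24 h and were DMSO as the vehicle, 0.1 µM of all-trans retinoic acid (ATRA), 0.1 µM of Corin, or the 2 compounds together at those doses. There were 8 groups of 2 libraries. Nothing in the labels says that the 2 libraries of a group came from separate cultures, so the p-values measure only the spread between these libraries, which may be technical.

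CoREST joins a histone demethylase and a pair of histone deacetylases on 1 scaffold. KDM1A, also called LSD1, takes methyl groups from the histone H3 tail, HDAC1 and HDAC2 take acetyl groups from histone tails, and the RCOR proteins hold the enzymes together. In blood cells the complex is brought to its target genes by the repressors GFI1 and GFI1B and holds back genes of maturation. Corin is a synthetic compound that joins a deacetylase inhibitor to an LSD1 inhibitor and was designed to block both activities of the complex. ATRA binds retinoic acid receptors, which turn on genes of myeloid maturation. The comparison asks whether the transcripts of the complex itself were higher or lower when its enzymes were inhibited, with or without ATRA.

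The 9 genes lie on 6 chromosomes. In the GENCODE v44 annotation of GRCh38, KDM1A (ENSG00000004487.16) lies on the plus strand of chromosome 1 from 23019443 to 23083689. HDAC1 (ENSG00000116478.12) lies on the plus strand of chromosome 1 from 32292083 to 32333635, and HDAC2 (ENSG00000196591.12) on the minus strand of chromosome 6 from 113933028 to 114011308. RCOR1 (ENSG00000089902.10) spans 102592649 to 102730561 on the plus strand of chromosome 14. RCOR2 (ENSG00000167771.6) spans 63911230 to 63917164 on the minus strand of chromosome 11, and RCOR3 (ENSG00000117625.13) spans 211258377 to 211316385 on the plus strand of chromosome 1. PHF21A (ENSG00000135365.15) spans 45929319 to 46121454 on the minus strand of chromosome 11. HMG20B (ENSG00000064961.19) spans 3572777 to 3579088 on the plus strand of chromosome 19, and ZMYM2 (ENSG00000121741.16) spans 19958677 to 20091829 on the plus strand of chromosome 13. The counts are sums over the transcripts of each gene, so they do not separate exons, isoforms or untranslated regions.

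Among the subunits, KDM1A and HDAC2 had the largest changes with both agents in U-937. HDAC1 moved opposite to them in counts scaled to library size. The 250 bases before the RefSeq start sites of these 3 catalytic genes (GRCh38.p14) are therefore shown. KDM1A is at chr1:23019218-23019467 on the plus strand, HDAC1 at chr1:32291833-32292082 on the plus strand and HDAC2 at chr6:113971149-113971398 on the minus strand. The HDAC2 window lies within the GENCODE span given above rather than before it. The end of the KDM1A window runs past the GENCODE start of that gene. Capitals mark GC boxes (GGGCGG) and CCAAT boxes on either strand.
KDM1A: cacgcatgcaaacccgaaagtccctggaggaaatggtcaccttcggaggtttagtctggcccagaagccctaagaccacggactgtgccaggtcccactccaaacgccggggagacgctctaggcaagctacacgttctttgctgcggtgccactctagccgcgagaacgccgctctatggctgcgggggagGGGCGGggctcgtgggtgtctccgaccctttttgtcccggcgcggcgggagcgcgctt
HDAC1: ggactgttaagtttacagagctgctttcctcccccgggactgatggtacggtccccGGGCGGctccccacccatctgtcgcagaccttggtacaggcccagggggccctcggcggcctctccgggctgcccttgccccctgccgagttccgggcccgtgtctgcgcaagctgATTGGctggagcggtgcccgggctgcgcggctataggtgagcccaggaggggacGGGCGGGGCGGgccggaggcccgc
HDAC2: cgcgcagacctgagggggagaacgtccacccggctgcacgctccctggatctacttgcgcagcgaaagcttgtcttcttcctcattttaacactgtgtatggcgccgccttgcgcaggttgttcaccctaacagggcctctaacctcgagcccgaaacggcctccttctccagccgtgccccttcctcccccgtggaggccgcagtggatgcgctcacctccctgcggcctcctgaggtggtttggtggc

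The 3 promoter windows differed in these letters. KDM1A held 1 GC box, HDAC1 held 3 GC boxes, of which 2 overlap by a base, and 1 CCAAT box, and HDAC2 held none of either. G and C made up 64.0% of the KDM1A window, 71.6% of the HDAC1 window and 63.2% of the HDAC2 window. RefSeq promoter entries were found for 8 of the 9 genes, 13 entries in all. A GC box was present in 9 of the 13 entries, against 42.5% of all 34943 promoters of the same length, and a CCAAT box in 5 of the 13, against 32%. Searches on both strands for an ETS site (CCGGAAG), an E-box (CACGTG), an E2F-like site (TTTNNCGC) and a nuclear receptor motif (AGGTCA) found no match in the 13 entries. Those letters are present in 8.48%, 6.32%, 5.89% and 12.1% of all promoters.

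The libraries held 32.8 to 37.8 M counts in SKNO-1 and 28.4 to 37.6 M counts in U-937. The fusion partner RUNX1T1 had 3181 to 5162 counts in every SKNO-1 library and at most 1 in U-937, and HOXA9 had 0 counts in SKNO-1 and 1266 to 2298 in U-937. The myeloid genes CD33 and SPI1 were present in all 16 libraries and were called higher in U-937 with ATRA and with both agents. In SKNO-1, CD33 was called lower with those 2 treatments. The granule gene MPO had 59769 to 144410 counts in SKNO-1, where it was called lower with Corin (-0.79), and 4 to 17 counts in U-937. Of the markers of other cell types, CD3E and MS4A1 had at most 1 count, EPCAM at most 4 and COL1A1 at most 26. COL1A1 was called higher in U-937 with Corin and with both agents at these low counts. The part of these markers in the subunit results was not tested. The 2 SKNO-1 DMSO libraries differed from each other more than any other pair. The SD of their log2 differences over genes was 0.354, against 0.106 to 0.194 in the other 7 groups, and these differences correlated with the GC content of the genes (Pearson r = 0.785 across 9344 genes, which are not independent replicates). That correlation was 0.576 for the U-937 DMSO pair, -0.506 for the SKNO-1 ATRA pair and 0.439 for the U-937 combination pair. In the remaining groups it lay between -0.178 and 0.103. The subunits called against DMSO in SKNO-1 are given with and without each SKNO-1 DMSO library below.

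Within untreated cells the catalytic subunits were the most abundant transcripts of the complex. Levels of different genes are compared in TPM, the authors' unit of transcript abundance per length, within a library. In U-937 with DMSO, HDAC2 had 137 and 159 TPM, HDAC1 88.7 and 98.9, and KDM1A 90.1 and 95.9. HDAC2 was above the other members there, and HDAC1 and KDM1A overlapped. The remaining members followed at means of 32.9 TPM for RCOR3, 31.9 for ZMYM2, 24.6 for RCOR1, 22.2 for HMG20B, 8.57 for PHF21A and 0.07 for RCOR2. RCOR3 and ZMYM2 overlapped in that order, and the others did not overlap with their next neighbour. In SKNO-1 with DMSO the order was HDAC2 (82.8 and 122 TPM), KDM1A (69.9 and 98.6), HDAC1 (49.2 and 75.0), ZMYM2 (35.6 and 55.6), RCOR3 (17.7 and 27.5), RCOR1 (15.4 and 25.8), HMG20B (9.21 and 8.94), PHF21A (7.21 and 10.3) and RCOR2 (0.85 and 0.75). Across the 2 libraries, neighbours from HDAC2 down to ZMYM2 overlapped, as did RCOR3 with RCOR1 and HMG20B with PHF21A. Within each library this order held, except that PHF21A was above HMG20B in replicate 2.

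**Figure D1:**
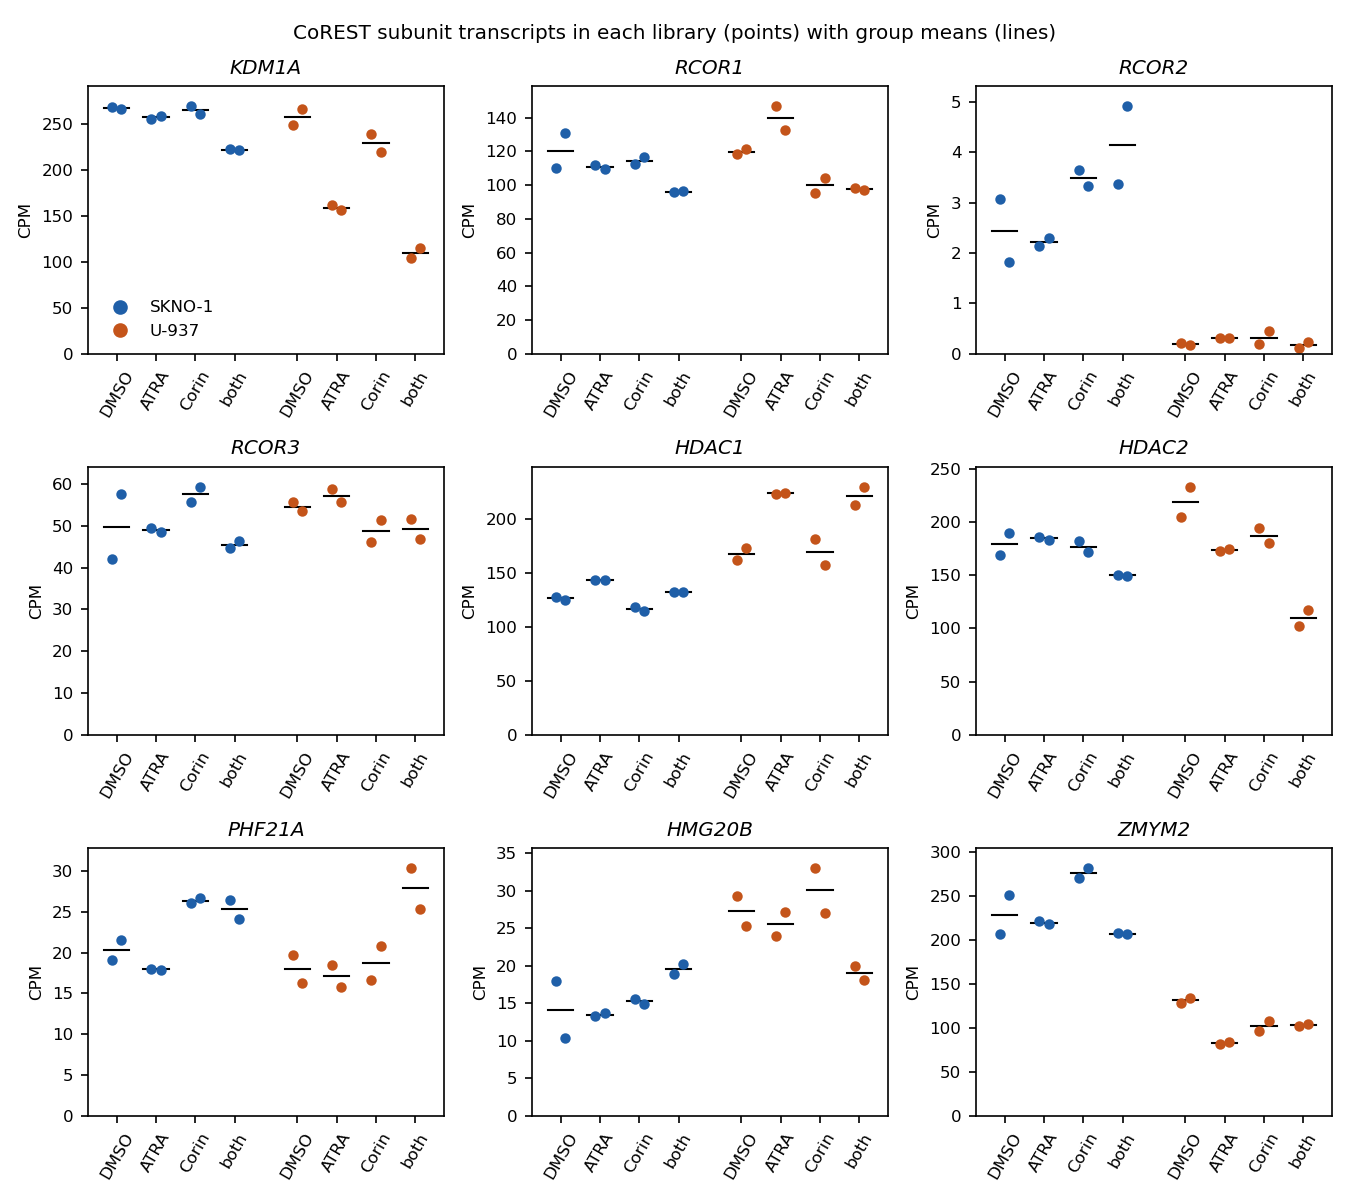
Level of each CoREST subunit gene in CPM (counts scaled to library size, normalised within each line; y axis from 0) in the 16 libraries, by treatment (x axis; "both" is ATRA plus Corin). Points are libraries and lines are group means. KDM1A in U-937 runs from 249 and 267 CPM with DMSO down to 105 and 115 CPM with both agents, whereas in SKNO-1 it stays between 221 and 270 CPM.

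A difference was called when edgeR's quasi-likelihood test gave a Benjamini-Hochberg adjusted p under 0.05 over all genes tested. Levels of 1 gene across libraries are given in CPM (counts scaled to library size) and differences on the log2 scale. The size or direction of a change, and the overlap of groups, can differ in TPM. This is given below for HDAC1, RCOR3, PHF21A and ZMYM2 in U-937 and for HDAC1 and PHF21A in SKNO-1. Other levels under treatment are given in CPM only, apart from the shares. For SKNO-1, 17479 genes were tested, and for U-937, 17717. The filter on low counts kept all 9 members in SKNO-1. In U-937 it kept 8, since RCOR2 had 4 to 14 counts a library there and was not tested. These are bulk libraries, so fewer cells with a transcript and less of it per cell cannot be told apart.

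In U-937 the combination of both agents changed 7 of the 8 tested subunits, 2 higher and 5 lower, where 65.3% of all tested genes were called, 33.1% higher and 32.2% lower. ATRA alone changed 4 of 8, 1 higher and 3 lower, where 41.8% of all genes were called, 21.7% higher and 20.1% lower. Corin alone changed 1 of 8, lower, where 12.9% were called, 8.55% higher and 4.4% lower. In SKNO-1 the combination changed 4 of 9, 1 higher and 3 lower, where 46.7% were called, 24.7% higher and 22% lower. Corin alone changed 2 of 9 there, both higher, where 37.9% were called, 20.5% higher and 17.3% lower. ATRA alone changed 0 of 9, where 6.76% were called, 2.96% higher and 3.79% lower. For that count DESeq2 also gave 0, and 1 member, HDAC1, had an unadjusted p under 0.05 in edgeR. The median log2 change of the tested subunits with both agents was -0.32 in U-937 and -0.13 in SKNO-1, beside 0.03 and 0.05 over all genes tested. The share of subunits called was near that of all genes with ATRA or Corin in U-937 and with both agents in SKNO-1. It was above it with both agents in U-937 and below it with Corin in SKNO-1, by a few genes in each case, and these differences were not tested.

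**Figure D2:**
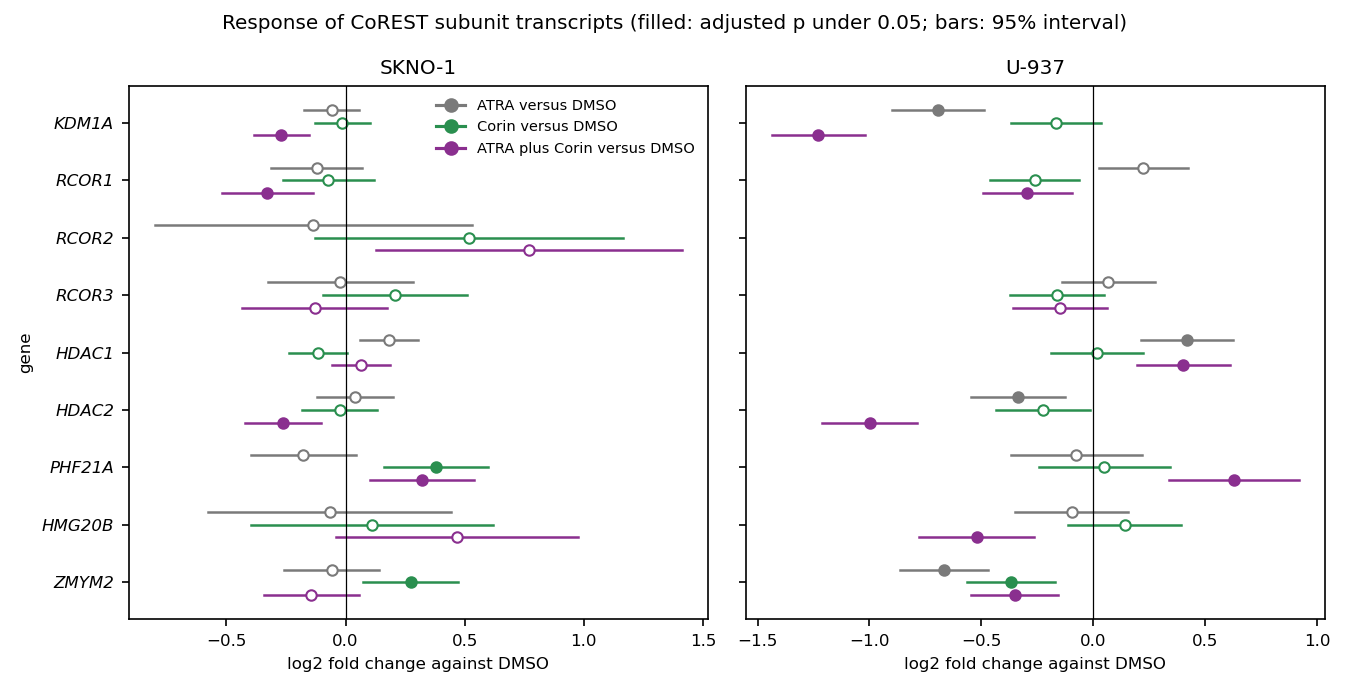
Log2 fold change of each subunit against DMSO (x axis) by gene (y axis) in SKNO-1 (left) and U-937 (right) for ATRA, Corin and both agents. Bars are 95% intervals and filled points are called at an adjusted p under 0.05. In U-937 KDM1A and HDAC2 lie furthest to the left with both agents, at -1.23 and -1.0, and HDAC1 and PHF21A lie to the right, at 0.40 and 0.63.

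KDM1A, the demethylase that Corin inhibits, fell in U-937 with ATRA and further with both agents. Its level was 249 and 267 CPM with DMSO, 240 and 220 with Corin, 163 and 156 with ATRA, and 105 and 115 with both. The ATRA libraries and the combination libraries lay below every DMSO and Corin library, and the combination lay below ATRA. Against DMSO the log2 fold change was -0.69 with ATRA (SE 0.10, adjusted p = 4.19e-06) and -1.23 with both (SE 0.10, adjusted p = 1.44e-10), a 2.34-fold lower level. With Corin alone it was -0.17 (SE 0.10, 95% interval -0.37 to 0.04, adjusted p = 0.304). The combination was lower than ATRA alone by a log2 fold change of -0.53 (adjusted p = 9.32e-05).

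In SKNO-1 the KDM1A transcript changed less. It was 269 and 267 CPM with DMSO, 256 and 259 with ATRA, 270 and 261 with Corin, and 223 and 221 with both. The combination libraries lay below the other 6. Their log2 fold change against DMSO was -0.27 (SE 0.05, adjusted p = 0.00316). Leaving out DMSO replicate 1 gave -0.28 and leaving out DMSO replicate 2 gave -0.29, both called. The changes with ATRA (-0.06, adjusted p = 0.644) and with Corin (-0.01, 95% interval -0.13 to 0.10, adjusted p = 0.856) were not called. With both agents KDM1A fell more in U-937 than in SKNO-1, by 0.92 on the log2 scale (interaction -0.92, SE 0.12, adjusted p = 3.09e-06).

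HDAC2, the more abundant deacetylase in untreated cells, moved with KDM1A in U-937. It had 205 and 233 CPM with DMSO, 194 and 180 with Corin, 173 and 174 with ATRA, and 102 and 117 with both. The combination libraries lay below the other 6 and the ATRA libraries below both DMSO libraries. With both agents HDAC2 fell 2.00-fold (log2 fold change -1.0, SE 0.10, adjusted p = 8.80e-09). The ATRA change was -0.34 (SE 0.10, adjusted p = 0.01), and it was lost without ATRA replicate 1 (adjusted p = 0.0802), ATRA replicate 2 (0.0611) or DMSO replicate 2 (0.157). The Corin change was -0.23 (95% interval -0.44 to -0.02, adjusted p = 0.158) and was not called.

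In SKNO-1 HDAC2 had 169 and 190 CPM with DMSO, 186 and 183 with ATRA, 182 and 171 with Corin, and 150 and 149 with both. The combination libraries were the lowest, at a log2 fold change of -0.26 against DMSO (SE 0.07, adjusted p = 0.0149). That call was lost without combination replicate 1 (adjusted p = 0.0787) or 2 (0.0823), and with the trend on GC content removed the change was -0.06 (adjusted p = 0.240). Leaving out DMSO replicate 1 gave -0.36 and leaving out DMSO replicate 2 gave -0.19, both called. The response to both agents differed between the lines by -0.69 (SE 0.13, adjusted p = 0.000341).

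HDAC1, the paralog that shares the deacetylase site of the complex, moved the other way in U-937 in CPM. Its level was 163 and 173 CPM with DMSO, 182 and 158 with Corin, 224 and 225 with ATRA, and 213 and 230 with both. All 4 libraries with ATRA lay above the 4 without it. HDAC1 rose with ATRA (log2 fold change 0.42, SE 0.10, adjusted p = 0.00159) and with both agents (0.40, SE 0.10, adjusted p = 0.00119). Corin alone gave 0.02 (95% interval -0.19 to 0.22, adjusted p = 0.945), and adding Corin to ATRA gave -0.02 (adjusted p = 0.911). In TPM, HDAC1 had 88.7 and 98.9 with DMSO, 114 and 98.3 with ATRA, and 93.0 and 87.8 with both agents. The ATRA and combination libraries thus overlapped with DMSO in that unit. The cause of the gap between the 2 units was not tested.

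In SKNO-1 HDAC1 had 128 and 125 CPM with DMSO, 144 and 144 with ATRA, 119 and 115 with Corin, and 132 and 132 with both. In TPM it had 49.2 and 75.0 with DMSO and 52.7 and 57.5 with both, which overlapped. In CPM the 4 groups did not overlap, but none was called against DMSO. The log2 fold changes were 0.18 with ATRA (adjusted p = 0.0944), -0.12 with Corin (0.123) and 0.06 with both (0.352). The ATRA value was called higher without DMSO replicate 1 (0.15) and without DMSO replicate 2 (0.13). The Corin value was called lower in the same fits, at -0.12 and -0.15. For both agents the response was higher in U-937 than in SKNO-1 (interaction 0.38, SE 0.12, adjusted p = 0.0136), a call lost without U-937 DMSO replicate 1 (0.33, adjusted p = 0.0555).

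The proportion of the 2 deacetylase transcripts differed between treatments in U-937. HDAC1 made up 39.3% and 38.4% of the summed HDAC1 and HDAC2 TPM with DMSO and 43.1% and 42.4% with Corin. It made up 52.8% and 51.8% with ATRA and 64.6% and 61.5% with both agents. The 4 groups did not overlap, and HDAC1 was the more abundant transcript in the 4 ATRA-exposed libraries and HDAC2 in the other 4. In SKNO-1 the HDAC1 share was 37.3% and 38.1% with DMSO, 42.0% and 38.9% with ATRA, 37.6% and 35.7% with Corin, and 44.3% and 44.1% with both. HDAC2 was the more abundant in all 8 SKNO-1 libraries. No test was run on the shares. The counts behind them were 4835 to 8110 for HDAC1 and 3411 to 7285 for HDAC2 in U-937.

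**Figure D3:**
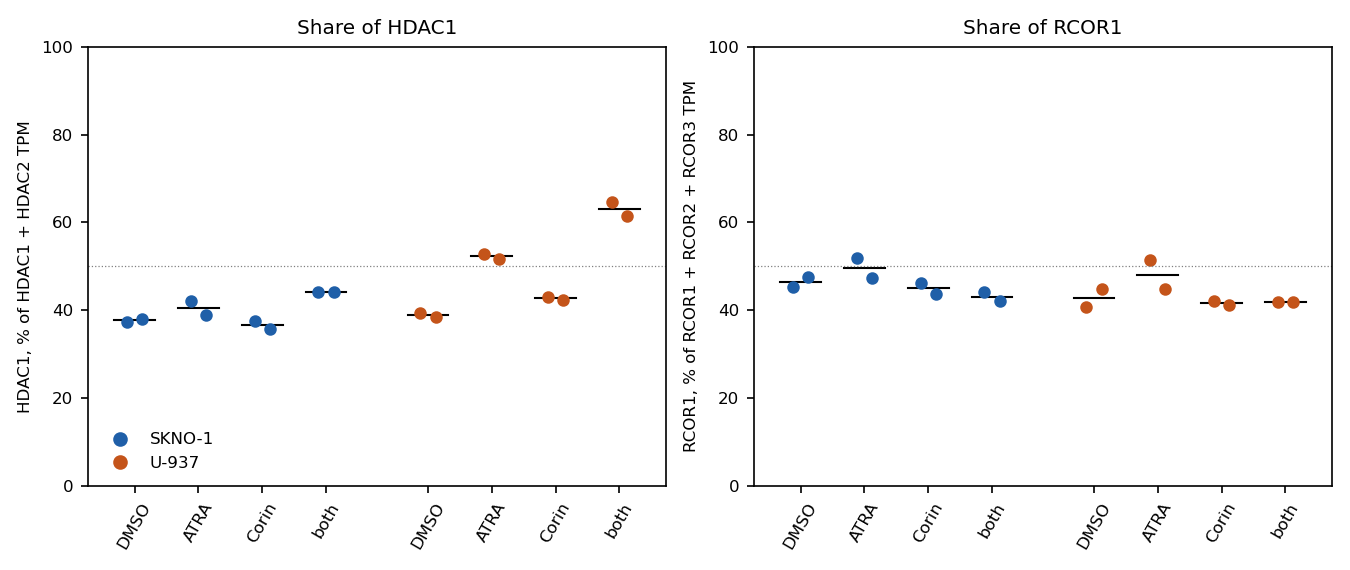
Share of HDAC1 in the summed TPM of HDAC1 and HDAC2 (left) and of RCOR1 in the summed TPM of RCOR1, RCOR2 and RCOR3 (right), in percent (y axes, 0 to 100), by line and treatment. Points are libraries, lines are group means and the dotted line marks 50%. The HDAC1 share rises from 38.4% and 39.3% to 61.5% and 64.6% in U-937 with both agents, and the RCOR1 share lies between 40.8% and 52.0% in all libraries.

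Of the scaffolds, RCOR1 (CoREST1) ties KDM1A to the deacetylases through its SANT and ELM2 domains, and RCOR2 and RCOR3 are its paralogs. In U-937 RCOR1 had 118 and 121 CPM with DMSO, 147 and 133 with ATRA, 95.4 and 104 with Corin, and 98.3 and 97.0 with both. The ATRA libraries were the highest and the Corin and combination libraries the lowest. RCOR1 fell with both agents (log2 fold change -0.29, SE 0.10, adjusted p = 0.00981). Removing the trend on GC content gave -0.11 (adjusted p = 0.239), and without DMSO replicate 2 the adjusted p was 0.0534. The changes with ATRA (0.22, adjusted p = 0.0644) and Corin (-0.26, adjusted p = 0.0765) were not called. The ATRA change was called with the GC trend removed (0.29, adjusted p = 0.00939; 0.0169 with the replicate block as well) and with only the libraries compared (0.0344), and the Corin change with DESeq2 (-0.27, adjusted p = 0.0433). The combination was lower than ATRA alone (-0.52, SE 0.10, adjusted p = 8.88e-05).

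RCOR1 in SKNO-1 had 110 and 131 CPM with DMSO, 112 and 110 with ATRA, 113 and 116 with Corin, and 95.6 and 96.3 with both. The combination libraries were again the lowest, at -0.33 against DMSO (SE 0.08, adjusted p = 0.0129). The call was lost without combination replicate 1 (adjusted p = 0.0738) or 2 (0.0663) and with the GC trend removed (-0.11, adjusted p = 0.0738). Leaving out DMSO replicate 1 gave -0.46 and leaving out DMSO replicate 2 gave -0.21, both called. The ATRA response of RCOR1 differed between the lines (interaction 0.39, SE 0.13, adjusted p = 0.0455), and that call was lost without any 1 of the 8 libraries compared other than SKNO-1 DMSO replicate 1 (adjusted p = 0.0726 to 0.284), with values from 0.20 to 0.46 over the 8 fits. It was also lost with RLE size factors (adjusted p = 0.0602), library totals (0.206), the replicate block (0.0688) and only the libraries compared (0.126).

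RCOR2 was close to silent in U-937 and low in SKNO-1. It had 0.12 to 0.46 CPM in the 8 U-937 libraries. In SKNO-1 it had 3.07 and 1.82 CPM with DMSO, 2.13 and 2.30 with ATRA, 3.65 and 3.32 with Corin, and 3.37 and 4.92 with both, which is 69 to 164 counts. The Corin-exposed libraries were above the others in all 4 cases. The change with both agents against DMSO was 0.77 (SE 0.28, adjusted p = 0.0521), and against ATRA alone it was 0.90 (SE 0.28, adjusted p = 0.0311). The latter was lost without combination replicate 2 (0.60, adjusted p = 0.214), ATRA replicate 1 (0.88, adjusted p = 0.132) or ATRA replicate 2 (0.99, adjusted p = 0.0995). Without DMSO replicate 1 the combination change against DMSO was 1.18, and without combination replicate 1 it was 1.01, both called. With all libraries it was also called with library totals (0.77, adjusted p = 0.0425) and without the low-count filter (0.75, adjusted p = 0.00431).

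RCOR3 was not called in any of the 6 comparisons with DMSO in the main fit of each line. Its level ran from 46.2 to 58.8 CPM over the U-937 libraries and from 42.1 to 59.4 over the SKNO-1 libraries, where the DMSO pair alone covered 42.1 to 57.6. The log2 fold changes against DMSO lay between -0.16 and 0.21. In U-937 their 95% intervals ran from -0.37 to 0.28. The change with both agents there was called lower with library totals (-0.27, adjusted p = 0.0428). In TPM, RCOR3 in U-937 had 34.88 and 30.84 with DMSO and 22.05 and 18.57 with both agents, which did not overlap. In SKNO-1 the Corin change was called with the GC trend removed (0.28, adjusted p = 0.029; 0.29 and 0.0096 with the replicate block as well) and without DMSO replicate 2 (0.44, adjusted p = 1.18e-05). The change with both agents there was called lower without DMSO replicate 1 (-0.35, adjusted p = 5.44e-05). As a share of the summed TPM of the scaffolds, RCOR3 made up 57.1% in U-937 and 51.5% in SKNO-1 with DMSO (group means), and RCOR1 made up 42.8% and 46.5%. By estimated counts, which are not per length, the order was the reverse. RCOR3 then made up 31.3% in U-937 and 28.7% in SKNO-1, and RCOR1 68.6% and 69.8%.

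The accessory subunits did not move as a set. PHF21A (BHC80), a reader of the unmethylated histone H3 tail, rose in U-937 with both agents. It had 19.8 and 16.3 CPM with DMSO, 18.4 and 15.8 with ATRA, 16.6 and 20.9 with Corin, and 30.4 and 25.4 with both. In CPM the combination libraries lay above the other 6, and the other groups overlapped with one another. In TPM, Corin replicate 2 (13.09) lay above both combination libraries (10.55 and 9.21). The DMSO and ATRA libraries and Corin replicate 1 lay below the combination libraries in that unit too. The log2 fold change was 0.63 (SE 0.14, adjusted p = 0.000431) with both, -0.08 (adjusted p = 0.695) with ATRA and 0.05 (adjusted p = 0.872) with Corin.

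In SKNO-1 PHF21A had 19.1 and 21.5 CPM with DMSO, 17.9 and 17.9 with ATRA, 26.1 and 26.7 with Corin, and 26.5 and 24.1 with both. In CPM the 4 libraries with Corin lay above the 4 without it. In TPM, DMSO replicate 2 (10.33) lay above Corin replicate 1 (10.13) and combination replicate 1 (9.02). PHF21A was called higher with Corin (log2 fold change 0.38, SE 0.09, adjusted p = 0.0152) and with both (0.32, SE 0.09, adjusted p = 0.0248). The Corin call was lost without Corin replicate 1 (adjusted p = 0.0757) or 2 (0.0964). The combination call was lost without combination replicate 1 (0.25, adjusted p = 0.172) or 2 (0.38, adjusted p = 0.0563). Without DMSO replicate 1 and without DMSO replicate 2, in turn, the values were 0.27 and 0.45 with Corin and 0.22 and 0.40 with both, all called. The response to both agents was not shown to differ between the lines (interaction 0.35, 95% interval -0.05 to 0.76, adjusted p = 0.159).

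HMG20B (BRAF35), an HMG-box protein that binds DNA for the complex, fell in U-937 with both agents. Its level was 29.3 and 25.4 CPM with DMSO, 23.9 and 27.2 with ATRA, 33.1 and 27.1 with Corin, and 19.9 and 18.1 with both. Only the combination libraries stood below all others. Their log2 fold change was -0.52 (SE 0.12, adjusted p = 0.000793). MFSD12 overlaps HMG20B on the opposite strand, and how strand entered the counting is not given in the sources used here. MFSD12, as CPM of the library total, was 18.8 and 18.4 with DMSO, 22.7 and 22.6 with ATRA, 26.9 and 25.8 with Corin, and 33.9 and 27.3 with both. MFSD12 values thus lay above DMSO under all 3 treatments, and the part of MFSD12 in the HMG20B counts was not tested. In the main fit HMG20B was called lower with both agents only. With the GC trend removed it was also called lower with ATRA (-0.26, adjusted p = 0.0413). In SKNO-1 HMG20B had 18.0 and 10.3 CPM in the 2 DMSO libraries, 13.3 and 13.8 with ATRA, 15.61 and 14.95 with Corin, and 18.9 and 20.3 with both. The DMSO pair covered the ATRA and Corin values, and the change with both was 0.47 (95% interval -0.04 to 0.97, adjusted p = 0.117). Without DMSO replicate 1 it was 0.90 and without DMSO replicate 2 it was 0.11. The response to both agents differed between the lines (interaction -0.95, SE 0.25, adjusted p = 0.00542), with values from -1.40 to -0.60 leaving out 1 library each.

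ZMYM2, an MYM-type zinc finger protein that binds SUMO, was lower in U-937 under all 3 treatments. It had 129 and 134 CPM with DMSO, 96.6 and 107 with Corin, 81.4 and 84.3 with ATRA, and 102 and 104 with both. In TPM the Corin libraries (21.13 and 27.97) overlapped with the DMSO libraries (27.94 and 35.87). In CPM every treated library lay below both DMSO libraries, and ATRA alone gave the lowest values. The log2 fold change was -0.67 with ATRA (SE 0.10, adjusted p = 4.40e-06), -0.37 with Corin (SE 0.09, adjusted p = 0.0102) and -0.35 with both (SE 0.09, adjusted p = 0.00233). The Corin call was lost without Corin replicate 1 (adjusted p = 0.108) or DMSO replicate 2 (0.0974). With the GC trend removed the changes were -0.60, -0.29 and -0.18, all called, and with the replicate block as well the call with both agents was lost (-0.18, adjusted p = 0.0627). Adding Corin to ATRA raised ZMYM2 relative to ATRA alone (0.31, SE 0.10, adjusted p = 0.00846), which was lost without ATRA replicate 1 (adjusted p = 0.111) or 2 (0.052).

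In SKNO-1 ZMYM2 had 207 and 251 CPM with DMSO, 222 and 218 with ATRA, 271 and 282 with Corin, and 207 and 207 with both. The Corin libraries were the highest. ZMYM2 was called higher with Corin (0.27, SE 0.09, adjusted p = 0.0382), a call lost without Corin replicate 1 (adjusted p = 0.114) or 2 (0.191), with RLE size factors (0.0536), library totals (0.0632) or DESeq2 (0.0563), and with only the libraries compared (0.136). Leaving out DMSO replicate 1 gave 0.12 and leaving out DMSO replicate 2 gave 0.40, both called. The Corin response of ZMYM2 was opposite in sign between the lines (interaction -0.64, SE 0.13, adjusted p = 0.00323). With ATRA, ZMYM2 fell more in U-937 than in SKNO-1 (interaction -0.57, SE 0.13, adjusted p = 0.00479).

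In U-937 the combination differed from the sum of the single agents for 4 of the 8 tested subunits, where 23.4% of all genes were called, 8.09% higher and 15.3% lower. That is 1434 genes higher and 2713 lower, against 2267 and 2530 with the GC trend removed. PHF21A (0.66, SE 0.20, adjusted p = 0.0176) and ZMYM2 (0.68, SE 0.13, adjusted p = 0.000483) were higher than the sum of the 2 log2 changes. HDAC2 (-0.44, SE 0.14, adjusted p = 0.0291) and HMG20B (-0.57, SE 0.17, adjusted p = 0.0193) were lower. KDM1A was below the sum by 0.37 but was not called (-0.37, adjusted p = 0.0599). Only ZMYM2 kept its call in every leave-one-out fit. With the GC trend removed HMG20B (-0.26, adjusted p = 0.180) and PHF21A (0.70, adjusted p = 0.051) were not called, nor was PHF21A with library totals (0.133) or HDAC2 with RLE size factors (0.058). The count fell to 1 without ATRA replicate 2 or Corin replicate 1 and to 2 without combination replicate 1 or DMSO replicate 1. In SKNO-1 the departure was called for 0 of 9 subunits, with 0.463% of all genes called, 0.315% higher and 0.149% lower. DESeq2 also called 0, and 3 subunits, KDM1A, HDAC2 and ZMYM2, had an unadjusted p under 0.05. Without DMSO replicate 2 the count was 6, where 30.9% of all genes were called.

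Adding Corin to ATRA changed 6 of 8 subunits in U-937, 2 higher and 4 lower, where 47.4% of all genes were called, 22.5% higher and 24.8% lower. KDM1A, HDAC2, RCOR1 and HMG20B were lower and PHF21A and ZMYM2 higher than with ATRA alone, by log2 fold changes of -0.66 (HDAC2) to 0.70 (PHF21A). The HMG20B call was lost without ATRA replicate 2 (-0.33, adjusted p = 0.105). Adding ATRA to Corin changed 5 of 8, with 60.5% of all genes called, 29.9% higher and 30.6% lower. KDM1A (-1.06), HDAC2 (-0.77) and HMG20B (-0.66) were lower, and PHF21A (0.58) and HDAC1 (0.39) were higher. In SKNO-1 adding Corin to ATRA changed 4 of 9, with 44.8% of all genes called, 23% higher and 21.8% lower. RCOR2 and PHF21A were higher and KDM1A and HDAC2 lower. Of these only PHF21A kept its call without each ATRA or combination library in turn, and the count was then 1 or 2. With the GC trend removed 4 subunits were called higher and 0 lower, and KDM1A (-0.09, adjusted p = 0.102) and HDAC2 (-0.10, adjusted p = 0.0806) were not called. Over all genes that correction gave 5599 higher and 3515 lower, against 4015 and 3813 without it. Adding ATRA to Corin changed 2 of 9 there, KDM1A (-0.26) and ZMYM2 (-0.42), with 10.4% of all genes called, 4.82% higher and 5.6% lower. The count was 0 without any 1 of the 4 libraries compared.

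With DMSO the lines differed in 4 of the 9 subunits, where 64.8% of 19872 tested genes were called, 31.7% higher and 33.1% lower. ZMYM2 was lower in U-937 (log2 fold change -0.93, SE 0.09), and RCOR2 was 13.3-fold lower (-3.74, SE 0.42, 7 and 5 counts against 106 and 69). HMG20B (0.83, SE 0.18, 0.52 to 1.32 leaving out 1 library) and HDAC1 (0.28, SE 0.08) were higher in U-937. KDM1A (-0.18, adjusted p = 0.0590), HDAC2 (0.16), RCOR1 (-0.14), RCOR3 (0.00) and PHF21A (-0.30) were not called. The response to ATRA differed between the lines for 3 of 9 subunits, where 19.4% of all genes were called, 10.6% higher in U-937 and 8.81% lower. With library totals alone those all-gene counts went from 2100 higher and 1750 lower to 1726 and 2358. The Corin response differed for 1, where 12.8% were called, 5.28% higher and 7.49% lower. The response to both agents differed for 4, where 40.6% were called, 17.9% higher and 22.7% lower.

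The SKNO-1 counts rest on the 2 DMSO libraries that stood apart. Without DMSO replicate 1, 6 subunits were called with ATRA, 7 with Corin and 8 with both agents, where 29.1%, 49.3% and 60.6% of all genes were called. Without DMSO replicate 2 the counts were 3, 5 and 4, where 24.7%, 52.1% and 52.8% were called. In these fits the remaining DMSO library was assumed to vary like the other groups. Without DMSO replicate 1, RCOR1, RCOR3, PHF21A and ZMYM2 were called lower with ATRA, at -0.29, -0.28, -0.31 and -0.24, and HDAC1 and HMG20B higher, at 0.15 and 0.34. Without DMSO replicate 2, RCOR3 was called in the opposite direction (0.18), ZMYM2 had the opposite sign (0.046) and HMG20B was called lower (-0.45). With both DMSO libraries and the GC trend removed, HDAC1 was called higher with ATRA (0.16, adjusted p = 0.0301) and with both agents (0.13, adjusted p = 0.0218), and RCOR2 (0.82, adjusted p = 0.00362) and HMG20B (0.39, adjusted p = 0.00207) were called higher with Corin.

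Over all 16 libraries, with each line's mean subtracted, the genes whose log2(CPM + 1) most resembled KDM1A were SORD and SLC16A1 (Pearson r = 0.994 for each), of 9458 genes with at least 5 CPM in each line. For HDAC2 they were CAPRIN1 (0.994) and CAND1 (0.989), for HDAC1 they were NINJ2 (0.959) and PCTP (0.957), and for RCOR1 they were PPP3CB (0.947) and LATS1 (0.933). The points share the same 8 groups, so these values describe likeness over treatments.

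Among the partners of CoREST outside the 9 subunits, ZNF217 rose with Corin and with both agents in both lines. ZNF217, a zinc finger protein found with CoREST, had 70.9 and 76.8 CPM with DMSO, 179 and 190 with Corin and 172 and 175 with both in SKNO-1. In U-937 it had 94.5 and 95.9 CPM with DMSO, 205 and 213 with Corin, and 307 and 314 with both. Its log2 fold change was 1.32 with Corin and 1.23 with both in SKNO-1, and 1.14 and 1.71 in U-937, all called. SFMBT1, a protein with MBT repeats, fell by 0.88 on the log2 scale with both agents in SKNO-1 and by 1.04 in U-937. Of the 9 partners, the combination raised 2 and lowered 2 in SKNO-1, and raised 2 and lowered 3 in U-937, where 46.7% and 65.3% of all genes were called. GFI1, which recruits the complex, was not called in either line with both agents (0.06 and -0.07). Its paralog GFI1B, which also recruits the complex, was called higher with Corin and with both agents in SKNO-1, where its 2 libraries together held 4 counts under DMSO, 6 under ATRA, 281 under Corin and 586 under the combination. In U-937 GFI1B had 0 to 15 counts a group and was not tested. REST, the repressor that gave CoREST its name, fell by 0.58 in SKNO-1 and by 0.46 in U-937.

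Subunits of the other complexes that share HDAC1 and HDAC2 are listed for comparison. With both agents 33.1% of all genes were called higher and 32.2% lower in U-937, and 24.7% and 22% in SKNO-1. In U-937, 2 of 13 NuRD genes were called higher and 9 lower. Their median was -0.79, beside -0.32 for the CoREST subunits and 0.03 for all genes. The histone chaperones RBBP4 (-1.28) and RBBP7 (-1.18), shared by NuRD and SIN3, led that list. In SKNO-1 1 of 12 tested NuRD genes was higher (MTA3, 0.82) and 4 were lower, among them MTA2 (-0.61). Of 11 SIN3 genes, 3 were higher and 6 lower in U-937, with SIN3A at -1.03 and ING2 at -1.11, and 1 was higher and 5 lower in SKNO-1. Of 9 MiDAC and NCoR/SMRT genes, 4 were higher and 2 lower in U-937, with MIDEAS, the scaffold of MiDAC, at 1.37. The KDM1A paralog KDM1B fell in both lines, by 0.98 in SKNO-1 and 1.09 in U-937. Of the 8 other genes in its list, HDAC4 to HDAC11, 5 of the 7 tested in U-937 were called higher with both agents, such as HDAC5 (0.92), and none was called lower.

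**Figure D4:**
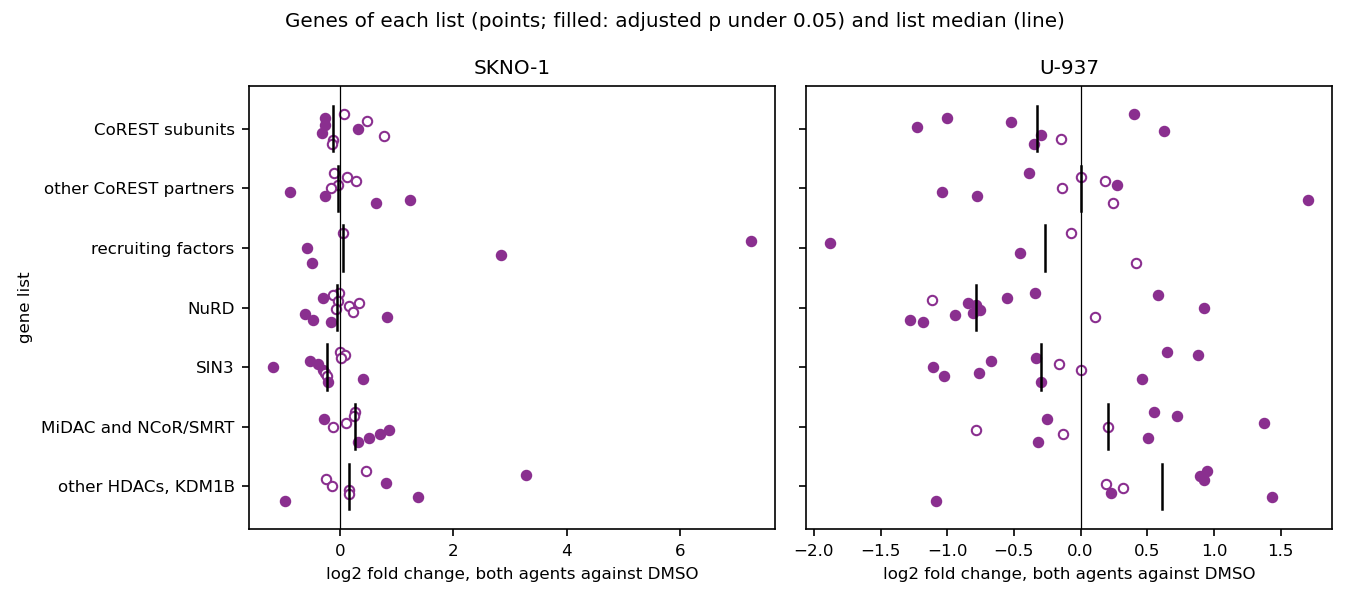
Log2 fold change with both agents against DMSO (x axis) of the genes in each list (y axis), in SKNO-1 (left) and U-937 (right). Points are genes, filled where called, and lines are list medians. In U-937 the NuRD median lies at -0.79 and the CoREST median at -0.32.

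The authors' deposited tables, made with DESeq2, hold their own tests of the 6 comparisons with DMSO. Their adjusted p was under 0.05 for 7 subunits with both agents, 5 with ATRA and 1 with Corin in U-937, and for 0 in the 3 SKNO-1 tables. Of 51 values present in both analyses, 50 had the same sign and 44 were on the same side of the threshold. In SKNO-1 with both agents, the authors' deposited table gives adjusted p = 0.0567 for KDM1A, 0.0593 for RCOR1, 0.0962 for HDAC2 and 0.392 for PHF21A. With Corin it gives 0.161 for PHF21A and 0.286 for ZMYM2, both called here. In U-937 with ATRA the authors' deposited table gives 0.0372 for RCOR1, which was not called here.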

How the data were processed

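RNA of 16 libraries was sequenced in pairs after a stranded total RNA preparation, per the labels' protocols. The authors trimmed reads with Trimmomatic, aligned them with STAR to hg38 and estimated gene levels with RSEM, per the submitters' processing notes; versions, annotation release and use of strand are not given in the sources used here. The deposited values are estimated counts and, in separate files, TPM, which the authors scaled per effective length. The authors' deposited DESeq2 tables hold log2 fold changes with standard errors and adjusted p-values.

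Estimated counts were rounded (3.47% of positive subunit values were not whole), filtered with filterByExpr, scaled by TMM and tested with edgeR 4.0.16 (quasi-likelihood, robust, R 4.3.3), with Benjamini-Hochberg adjustment over all genes. Each line was fitted on its 8 libraries, and contrasts between lines on all 16. The script was tested on simulated data. Alternatives were DESeq2 1.42.0, other scaling, no filter, a GC correction, a replicate block, only the libraries compared, and leaving out each library.

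The subunits and the other gene lists were chosen with earlier results of these data known. All 9 subunits were named. Of each other list, the 2 called genes with the largest change per line with Corin or with both agents were named where the mean was at least 5 CPM, and GFI1 was named as a recruiter of the complex. Genes like a subunit were ranked by Pearson's r over 16 libraries. Replicate numbers were not used to pair libraries. The counts of 1 marker gene of another cell type are not reported here.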

Additional observations from a re-analysis of the deposited data

Results flagged for a closer look

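The difference in response between the lines passed the interaction test for 8 results, each given as the U-937 minus the SKNO-1 log2 change from edgeR's quasi-likelihood test. For ATRA they were KDM1A at -0.60 (adjusted p = 0.000935), RCOR1 at 0.39 (adjusted p = 0.0455) and ZMYM2 at -0.57 (adjusted p = 0.00479). For Corin it was ZMYM2 at -0.64 (adjusted p = 0.00323). For both agents they were KDM1A at -0.92 (adjusted p = 3.09e-06), HDAC1 at 0.38 (adjusted p = 0.0136), HDAC2 at -0.69 (adjusted p = 0.000341) and HMG20B at -0.95 (adjusted p = 0.00542).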

How the results depend on the processing

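None of the 51 called subunit results changed direction under any alternative run. Of these calls, 9 were lost with the block and GC correction together, 7 with the GC correction, 5 with library totals, 3 with RLE factors, 2 with DESeq2 and 1 without the low-count filter, and 7 of 47 with only the libraries compared. The replicate numbers did not pair the libraries (correlations of deviations -0.496 to 0.421), and the replicate block lost 1 of the 51 calls, RCOR1 in the ATRA interaction (adjusted p = 0.0688). In U-937 the counts of subunits called ranged, leaving out 1 library each, from 3 to 4 with ATRA (4 with all), 0 to 1 with Corin (1), 6 to 7 with both (7), 4 to 6 for both against ATRA (6) and 1 to 5 for the departure from additivity (4). DESeq2 gave 2 with Corin. In SKNO-1 the same ranges were 0 to 6 with ATRA (0), 0 to 7 with Corin (2), 1 to 8 with both (4), 1 to 2 for both against ATRA (4), 0 to 0 for both against Corin (2) and 0 to 6 for additivity (0). With the GC trend removed the SKNO-1 counts were 1 with ATRA, 5 with Corin and 4 for both against Corin, and with the block and GC correction together 1 with ATRA and 5 with Corin. With Corin in SKNO-1, RLE factors, library totals and DESeq2 each gave 1. With only the libraries compared the counts were 0 with Corin, 1 with both, 7 for both against ATRA and 7 for both against Corin. Without the low-count filter both against Corin gave 5 and additivity 1, and DESeq2 gave 4 for both against Corin. For the interactions, the GC correction gave 5 for ATRA (3; 5 also with the block) and 2 for Corin (1), and leaving out 1 library gave 2 to 3, 1 to 2 and, for both agents (4), 3 to 5. The cause of these shifts was not tested.

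Some changes that were not called with all libraries turned sign. In SKNO-1, HMG20B with ATRA was called in opposite directions, at 0.34 without DMSO replicate 1 and -0.45 without DMSO replicate 2. The same held for HMG20B with Corin (0.54 and -0.25) and for RCOR3 with ATRA (-0.28 and 0.18). In SKNO-1 with ATRA, HDAC2 was -0.0018 without the filter. With Corin, KDM1A was 0.031 with library totals and 0.051 with the GC correction, with or without the block, and HDAC2 was 0.016 and 0.041. With both, RCOR3 was 0.063 with the GC correction and 0.069 with the block added, and ZMYM2 was 0.079 in both. In U-937 with ATRA, RCOR3 was -0.0046 with library totals. Leaving out 1 library gave, with ATRA in SKNO-1, -0.51 to 0.24 for RCOR2, -0.28 to 0.18 for RCOR3, -0.088 to 0.086 for HDAC2, -0.45 to 0.34 for HMG20B and -0.24 to 0.046 for ZMYM2. With Corin it gave -0.043 to 0.0096 for KDM1A, -0.22 to 0.041 for RCOR1, -0.024 to 0.44 for RCOR3, -0.13 to 0.043 for HDAC2 and -0.25 to 0.54 for HMG20B, and with both -0.35 to 0.11 for RCOR3. In U-937 it gave, with ATRA, -0.21 to 0.066 for PHF21A and -0.20 to 0.0087 for HMG20B, and with Corin -0.10 to 0.11 for HDAC1, -0.12 to 0.20 for PHF21A and -0.020 to 0.27 for HMG20B.

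Counts over all genes moved by over 1.5 times in SKNO-1: with ATRA from 1181 to 1963 without the filter, 2415 with the GC correction, 2217 with block and GC, and 239 with only the libraries compared; with Corin from 6619 to 3776 with only the libraries compared. For both against Corin the count went from 1822 to 4238 without the filter, 1066 with the block, 2858 with the GC correction and 7440 with only the libraries compared. For additivity it went from 81 to 1445 without the filter, 277 with DESeq2, 20 with the block, 545 with the GC correction, 420 with block and GC, and 7 to 5648 leaving out 1 library. The Corin interaction went from 2538 to 3986 with the GC correction and 1388 with only the libraries compared. Leaving out 1 library, the all-gene counts ran from 562 to 5335 with ATRA, 3626 to 9520 with Corin, 4962 to 5231 for both against ATRA (7828 with all) and 397 to 466 for both against Corin in SKNO-1, from 1332 to 1887 with Corin in U-937 (2293) and from 1524 to 4471 for the Corin interaction. Library totals moved the median of all genes from 0.03 to -0.09 with both agents in U-937. The named genes of the other lists were tried under the same alternatives, chosen after seeing the data; of 456 such results 426 kept their call, 30 lost it and 0 reversed.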
